A study of Mus musculus with 48 samples.

Results

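The genes described here are 34 genes of the cell cycle and of DNA replication, taken by name: cyclins, Cdk1, the replicative helicase Mcm2 to Mcm7, the sliding clamp Pcna, enzymes of nucleotide synthesis, mitotic kinases, spindle and kinetochore genes, and the proliferation antigen Mki67. They were listed by symbol and role, and all 34 were found among the 29221 genes of the joined count table.

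Dividing cells switch on cell cycle genes in waves. D and E cyclins lead a cell out of rest, E2F factors then raise the genes that load and run the replication forks, and a later wave, driven by FOXM1 and the B-MYB complex, supplies the cyclins, kinases and kinesins of mitosis. Most hepatocytes of an adult liver are at rest, so RNA of the mitotic genes is scarce there, and it rises after partial hepatectomy, with injury, and in dividing immune, stromal or biliary cells.

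RNA was taken from the whole livers of 48 adult mice, all of which carried a floxed Pparg gene and all of which received an AAV8 virus 16 weeks into the diet. The virus either expressed Cre from the hepatocyte promoter TBG (AAV8-TBG-Cre, labelled knockout) or carried no Cre (AAV8-TBG-null, control), so other liver cells were not targeted. The low fat (LF) and high fat (HF) diets lasted 34 weeks, and the HFCF diet, high in fat, cholesterol and fructose, was given for 16 weeks after 18 weeks of HF. Males on HF and HFCF made 4 groups of 6 livers, and females on LF, HF and HFCF made 6 groups of 4 livers. Each library came from its own mouse.

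Libraries held 15338239 to 22072884 reads on genes, and all 11 hepatocyte markers were present in every library. Levels are given as CPM, the reads of a gene per 1e6 reads on genes, scaled between libraries by the trimmed mean of M-values (TMM). Differences are log2 values from edgeR's quasi-likelihood test of 2 groups, with p-values adjusted over all genes tested by the Benjamini-Hochberg method, and a gene was called where its adjusted p was under 0.05. The targeted gene, Pparg, was not lower in any labelled-knockout group: the mean CPM was 41.2 against 34.3 in HF males, 55.9 against 32.0 in HFCF males, 15.6 against 10.5, 28.8 against 18.6 and 46.0 against 23.7 in LF, HF and HFCF females. It was called higher with the label in HFCF males, by a log2 difference of 0.81 (SE 0.11, adjusted p 0.000838), and in HFCF females, at 0.97 (SE 0.13, adjusted p 0.0414). The counts are of whole genes, single exons were not examined here, and the groups are named as labelled. In whole-liver RNA, more cells in cycle and more RNA per cycling cell cannot be told apart.

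The promoters of these genes carry known cell cycle elements, and 6 of them are shown because they stand for members that were called and members that were not: Ccnb2, Cdk1, Mki67 and Mcm5 rose with the HFCF diet, whereas Pcna and Tyms were not called in any diet comparison. Each line gives the 250 bases before the RefSeq start, 5′ to 3′ on the strand of the gene, with elements found on either strand in capitals. The elements searched were the CCAAT box (CCAAT), the CHR-type elements TTTGAA and TTTAAA, and the E2F-type elements TTGGCGC or TTCGCGC or else TTCCCGC, each also as its reverse complement.
Ccnb2 (chr9:70421555-70421804, minus strand): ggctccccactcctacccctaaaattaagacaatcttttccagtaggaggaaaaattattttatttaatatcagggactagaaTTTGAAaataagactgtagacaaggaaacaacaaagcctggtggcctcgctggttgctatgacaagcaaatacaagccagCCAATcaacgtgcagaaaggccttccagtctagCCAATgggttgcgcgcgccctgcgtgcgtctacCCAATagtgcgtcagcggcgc
Cdk1 (chr10:69352913-69353162, minus strand): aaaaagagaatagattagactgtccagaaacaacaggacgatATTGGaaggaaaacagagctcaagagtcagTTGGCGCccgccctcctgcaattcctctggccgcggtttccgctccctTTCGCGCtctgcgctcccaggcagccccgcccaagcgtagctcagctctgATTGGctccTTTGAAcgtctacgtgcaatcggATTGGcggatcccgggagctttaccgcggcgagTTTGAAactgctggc
Mki67 (chr7:135716380-135716629, minus strand): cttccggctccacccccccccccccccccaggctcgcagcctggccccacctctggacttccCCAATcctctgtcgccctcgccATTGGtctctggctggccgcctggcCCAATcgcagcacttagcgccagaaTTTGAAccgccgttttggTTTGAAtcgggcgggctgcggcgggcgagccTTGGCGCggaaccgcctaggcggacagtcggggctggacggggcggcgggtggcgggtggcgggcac
Mcm5 (chr8:75109259-75109508, plus strand): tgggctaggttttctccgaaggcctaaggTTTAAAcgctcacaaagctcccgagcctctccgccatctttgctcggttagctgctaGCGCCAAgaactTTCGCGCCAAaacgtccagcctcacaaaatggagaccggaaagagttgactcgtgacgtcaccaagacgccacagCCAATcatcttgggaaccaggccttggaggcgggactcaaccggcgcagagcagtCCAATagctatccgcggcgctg
Pcna (chr2:132253181-132253430, minus strand): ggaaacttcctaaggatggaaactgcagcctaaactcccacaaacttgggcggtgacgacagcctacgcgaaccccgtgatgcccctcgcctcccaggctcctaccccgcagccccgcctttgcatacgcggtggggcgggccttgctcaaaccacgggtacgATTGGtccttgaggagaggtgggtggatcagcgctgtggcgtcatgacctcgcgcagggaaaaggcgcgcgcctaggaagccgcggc
Tyms (chr5:30073626-30073875, minus strand): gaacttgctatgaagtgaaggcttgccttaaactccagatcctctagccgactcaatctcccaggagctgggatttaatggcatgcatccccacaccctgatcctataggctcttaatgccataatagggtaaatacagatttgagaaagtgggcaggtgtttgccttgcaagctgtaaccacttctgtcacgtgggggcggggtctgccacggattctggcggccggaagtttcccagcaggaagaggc
Coordinates and sequences are those of RefSeq on GRCm38.p6, in which 26 of the 34 members matched. Ccnb2 held 3 CCAAT boxes in 1 orientation and 1 TTTGAA, and Mki67 held 3 CCAAT boxes, 2 TTTGAA and 1 E2F-type element, while the Pcna window held 1 CCAAT box and the Tyms window held no match. The 6 windows shown do not cover the range in either class. Nusap1, which was called, held no match, and Aurka, which was never called, held 2 CCAAT boxes. A CCAAT box stood in 22 of the 26 windows (84.6%), against 33.8% of 32851 RefSeq promoter windows of the same length. TTTGAA stood in 8 of 26 (30.8% against 16.0%), TTTAAA in 6 (23.1% against 12.1%) and an E2F-type element in 6 (23.1% against 6.69%). Of the 21 matched members called in a diet comparison, 19 held a CCAAT box, 8 TTTGAA, 5 TTTAAA and 6 an E2F-type element. The 5 matched members that were never called held 3, 0, 1 and 0 of these. A match is a run of letters, not a measured binding site.

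Mitotic cyclins, kinesins and helicase genes were called higher on the HFCF diet in both sexes and both genotypes, while the E cyclins, Pcna and the genes of nucleotide supply were not called. Against the HF diet, 18 of 34 members were higher in male controls, 27 in male labelled knockouts, 22 in female controls and 14 in female labelled knockouts, and 0 were lower in each. Against the LF diet in females, 25 members were higher in controls and 21 in labelled knockouts, again with 0 lower. The share of all tested genes called in either direction was 22.1%, 41.3%, 30.1% and 14.5% in the HFCF against HF comparisons, in that order, and 35.2% and 12.0% against LF. The share called higher was 12.8%, 21.5%, 16.5%, 8.5%, 18.4% and 8.27%. The members' median log2 difference was 0.58, 1.09, 1.54 and 1.31 against HF and 1.62 and 1.54 against LF, while the median over all tested genes lay between -0.02 and 0.01. The female HFCF libraries are the same in the HF and LF comparisons.

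**Figure D1:**
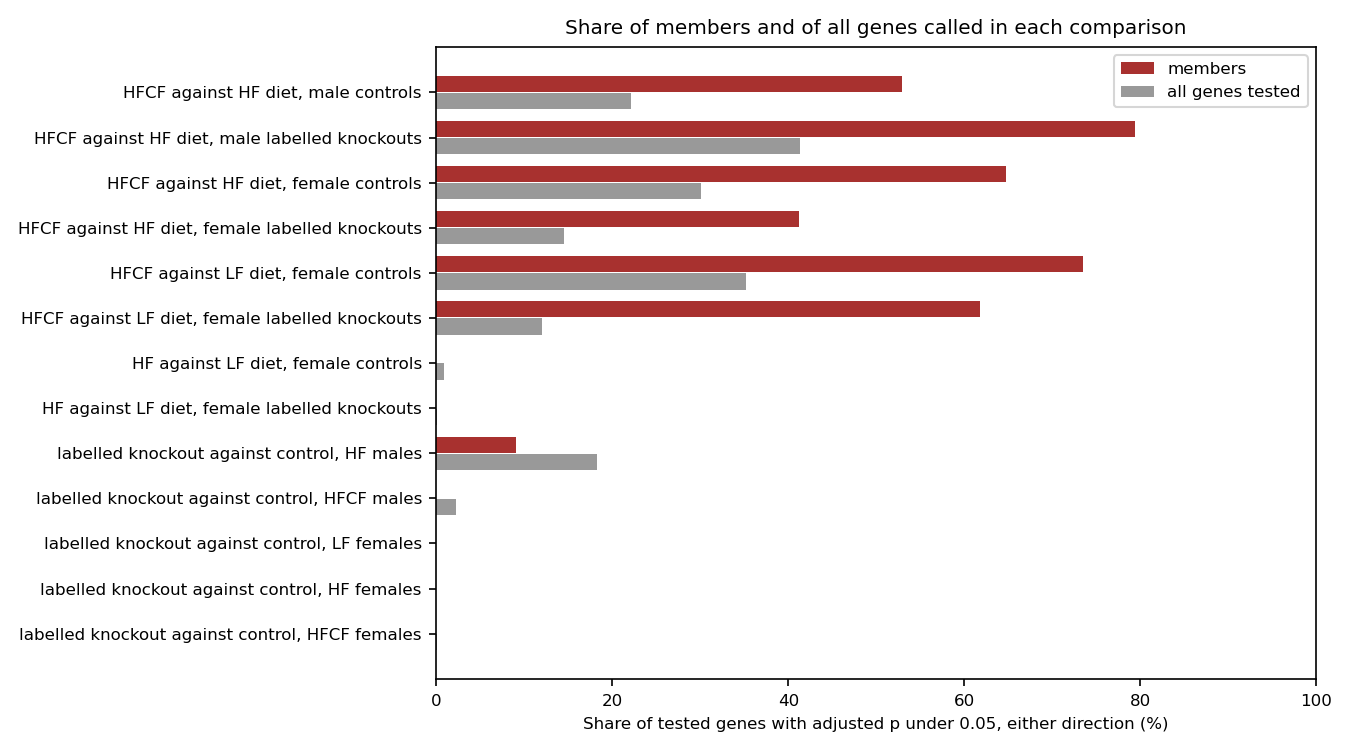
Share (%) of the 34 members (red) and of all tested genes (grey) with an adjusted p under 0.05 in either direction, for 13 comparisons of 2 groups each. The members' bar is the higher one in the 6 HFCF diet comparisons, 9.09% against 18.3% for the label in HF males, and 0 in the other 6 comparisons.

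All 34 members passed the filter on low counts in these 6 comparisons, some of them through the HFCF group alone. Under 10 reads in every library of the lower group were found for 1 member in HF control females, 2 members in LF control females and 5 in LF labelled-knockout females. Under 10 reads in at least 1 library of the lower group were found for 1, 9, 14 and 12 members against HF. Against LF it was 13 members in controls and 18 in labelled knockouts. Among members with at least 10 reads in every library, 17 of 33, 18 of 25, 14 of 20 and 7 of 21 were called against HF, and 13 of 21 and 9 of 16 against LF.

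In all 6 HFCF comparisons 7 members were called: Ccnb2, Cdk1, Cdc20, Aurkb, Kif20a, Cenpf and Mcm5. Of these, Aurkb and Cenpf had under 10 reads in every LF labelled-knockout liver (5, 5, 5 and 8 reads, and 7, 1, 2 and 5) and passed the filter there through the HFCF group. Among LF controls, Ccnb2 held 18, 4, 6 and 4 reads and Cdk1 held 22, 8, 10 and 9. Cdc20 held 21, 4, 4 and 8 reads in the same livers, and Kif20a 22, 6, 11 and 8. All of these passed the filter there only with reads of the HFCF group added. The same held for several of the 7 against HF in females. HF controls held 25, 7, 11 and 3 reads of Ccnb2, 39, 8, 13 and 23 of Cdk1, and 25, 2, 14 and 0 of Cenpf. HF labelled knockouts held 2, 8, 17 and 5 reads of Aurkb and 4, 20, 28 and 4 of Ccnb2. Another 11 members were called in 5 of the 6 comparisons, 4 in 4, 3 in 3 and 2 in 2. Mcm7 was called in 1, and Pcna, Rrm2, Tyms, Ccne1, Ccne2 and Aurka in 0.

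**Figure D2:**
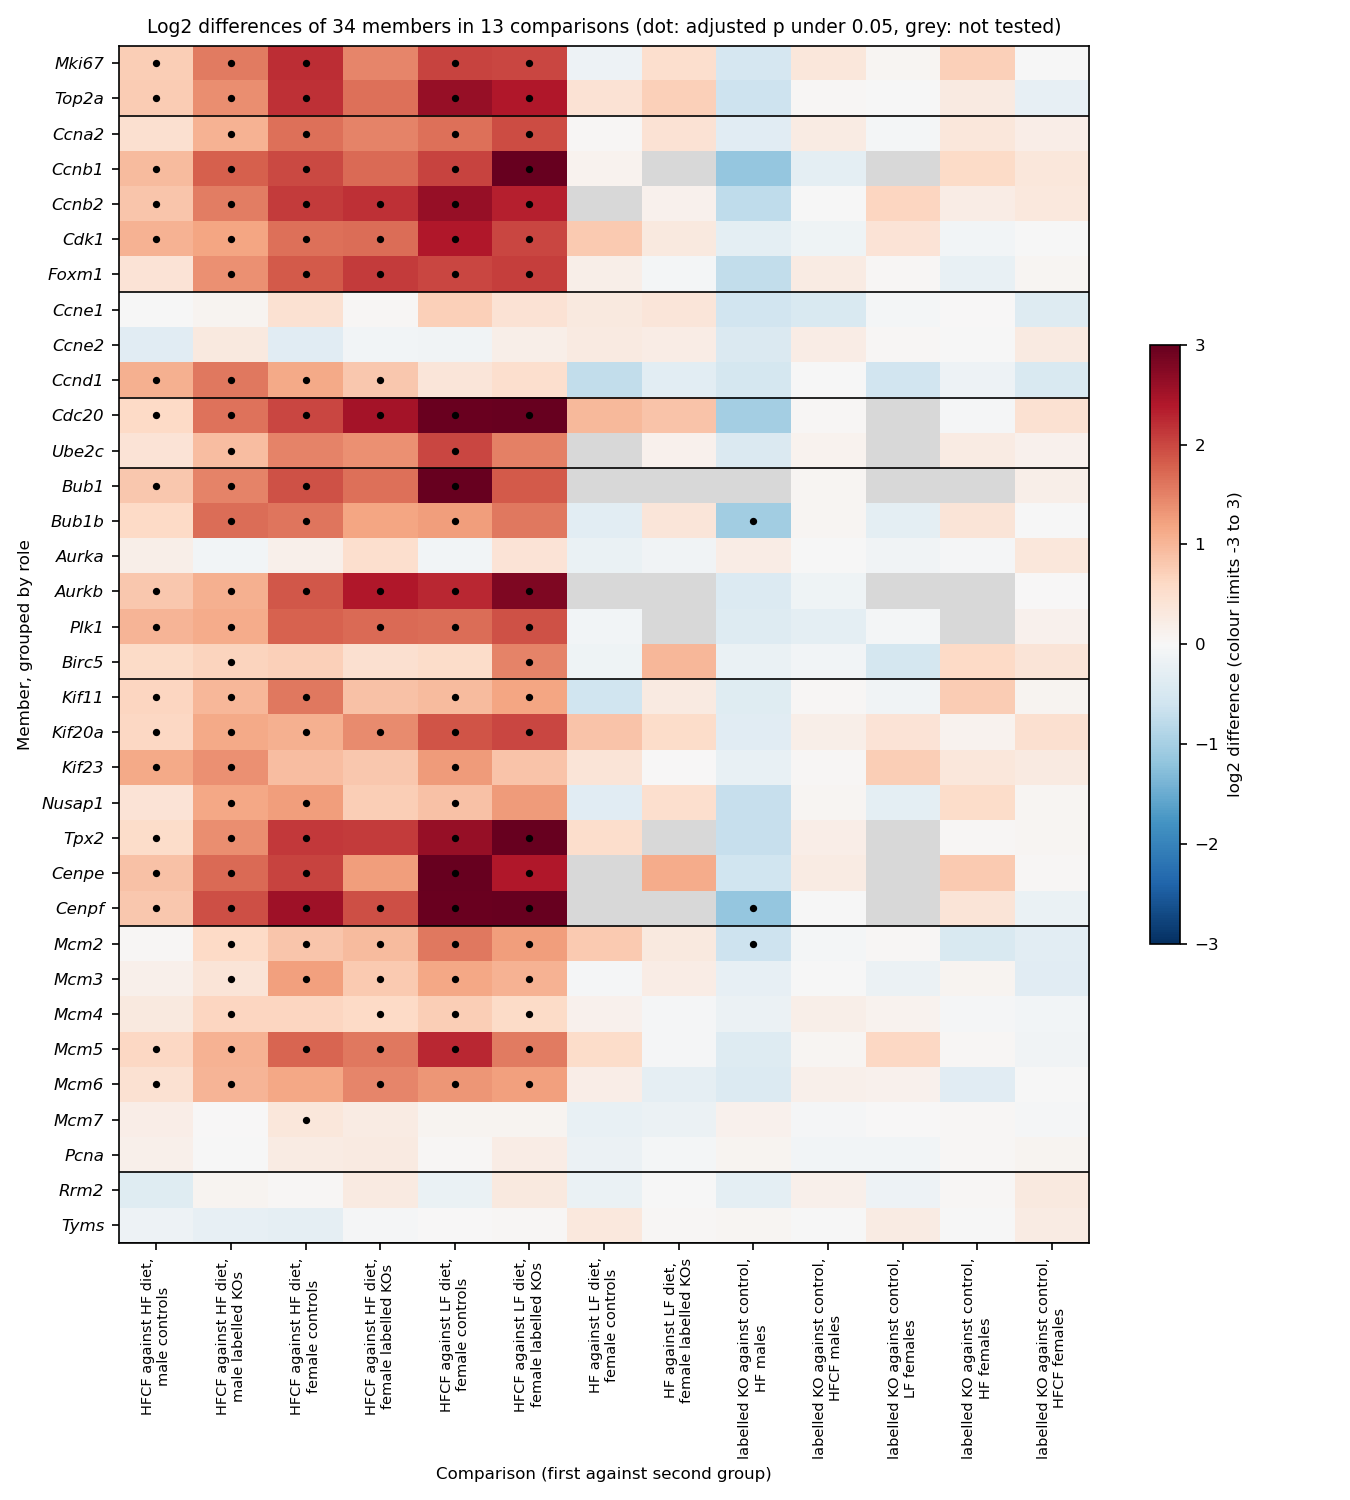
Log2 difference of each of the 34 members (rows, grouped by role) in 13 comparisons (columns), red where higher and blue where lower in the first group, a dot where called, grey where not tested. The 6 HFCF columns on the left are red for most mitotic and Mcm genes and pale for Ccne1, Ccne2, Aurka, Mcm7, Pcna, Rrm2 and Tyms.

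Among the 3 cyclins that act before S phase, Ccnd1 alone was called. Ccnd1 encodes cyclin D1, which with CDK4 and CDK6 starts the phosphorylation of RB. In males it measured 18.2 to 45.7 CPM (median 30.9) in HF controls and 48.6 to 78.4 CPM (median 64.5) in HFCF controls, and 14.9 to 30.9 CPM (median 22.2) and 47.5 to 78.4 CPM (median 67.4) in the labelled knockouts, with no overlap between diets in either genotype. The log2 difference was 1.07 (SE 0.20, adjusted p 0.00376) in male controls and 1.58 (SE 0.19, adjusted p 5.97e-05) in male labelled knockouts. In females the HF controls held 79.0, 51.9, 50.2 and 40.4 CPM and the HFCF controls 159, 110, 115 and 105 CPM, a difference of 1.15 (SE 0.21, adjusted p 0.00815). Female labelled knockouts held 63.7, 45.3, 34.5 and 57.3 CPM on HF and 58.9, 118, 81.4 and 91.5 CPM on HFCF, a difference of 0.81 (SE 0.23, adjusted p 0.0433), and these groups overlapped.

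Against LF, Ccnd1 was not called. LF controls held 101, 91.7, 106 and 77.4 CPM and LF labelled knockouts 63.7, 100, 44.2 and 44.4 CPM, so all LF controls lay above 3 of the 4 HF controls. Against LF the HFCF difference was 0.37 (SE 0.15, adjusted p 0.0721) in controls and 0.51 (SE 0.28, adjusted p 0.275) in labelled knockouts, neither of which was called, and the HF against LF difference in controls was -0.75 (SE 0.20, adjusted p 0.116). Ccnd1 overlaps Oraov1 on the opposite strand, and the libraries carried no strand, so its counts are uncertain to that extent.

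E cyclins drive CDK2 at the start of S phase. Ccne1 ran from 0.334 to 2.76 CPM over the 48 libraries and its HFCF differences against HF were -0.01 (SE 0.25), 0.09 (SE 0.26), 0.45 (SE 0.41) and 0.04 (SE 0.42) in male controls, male labelled knockouts, female controls and female labelled knockouts. None passed the test, and the interval of 2 SE around each included 0. The highest Ccne1 value of a female HF control, 1.79 CPM in replicate 1, stood apart from 0.557, 0.685 and 0.551 CPM in the other libraries of its group. Ccne2 measured 1.07 to 2.86 CPM in the 48 libraries and was not called in any comparison; it overlaps Ints8 on the opposite strand.

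The cyclins of S phase and mitosis rose together with Cdk1, the kinase they activate, and Foxm1, the factor that switches on their genes. Of these 5 genes, 3 were called in male controls, 5 in male labelled knockouts, 5 in female controls and 3 in female labelled knockouts against HF, and 5 in each genotype against LF. Ccnb2, a B-type cyclin of mitosis, measured 1.61 to 2.85 CPM (median 2.24) in male HF controls and 2.88 to 6.12 CPM (median 3.55) in male HFCF controls, which did not overlap. Male labelled knockouts held 0.701 to 2.84 CPM (median 1.25) on HF and 2.13 to 4.75 CPM (median 4.33) on HFCF. The differences were 0.83 (SE 0.21, adjusted p 0.0118) and 1.55 (SE 0.29, adjusted p 0.000579), and the highest HF labelled knockout, replicate 4, reached into the HFCF range.

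In female controls Ccnb2 held 1.06, 0.262, 0.359 and 0.219 CPM on LF, 1.44, 0.433, 0.685 and 0.184 CPM on HF and 4.44, 3.14, 1.39 and 2.93 CPM on HFCF. Female labelled knockouts held 0.840, 0.601, 0.795 and 0.738 CPM on LF, 0.215, 1.32, 1.37 and 0.281 CPM on HF and 2.06, 3.73, 4.25 and 4.53 CPM on HFCF. All HFCF labelled knockouts lay above all LF and HF ones, and among controls 1 HFCF library fell just below the highest HF library. The HFCF difference against HF was 2.10 (SE 0.54, adjusted p 0.0191) in controls and 2.18 (SE 0.54, adjusted p 0.0244) in labelled knockouts. Against LF it was 2.62 (SE 0.51, adjusted p 0.00378) and 2.33 (SE 0.33, adjusted p 0.00265).

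Cdk1 was at 1.29 to 3.76 CPM (median 1.74) in male HF controls, 0.828 to 3.03 CPM (median 1.47) in male HF labelled knockouts, 3.12 to 4.87 CPM (median 4.25) in male HFCF controls and 2.50 to 4.85 CPM (median 3.83) in male HFCF labelled knockouts. Its HFCF difference was 1.04 (SE 0.23, adjusted p 0.00629) in controls and 1.18 (SE 0.26, adjusted p 0.00169) in labelled knockouts. Female HF controls held 2.25, 0.495, 0.809 and 1.41 CPM and female HFCF controls 5.03, 3.74, 3.14 and 3.63 CPM, with no overlap and a difference of 1.64 (SE 0.39, adjusted p 0.0150). In female labelled knockouts the values were 0.861, 1.12, 1.86 and 0.844 CPM on HF and 1.10, 3.38, 4.16 and 6.39 CPM on HFCF, where replicate 1 stayed within the HF range and the difference was 1.68 (SE 0.49, adjusted p 0.0433). LF libraries held 1.30, 0.523, 0.599 and 0.493 CPM in controls and 0.960, 0.401, 0.979 and 1.54 CPM in labelled knockouts.

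Foxm1 rose by 1.38 (SE 0.30), 1.85 (SE 0.33) and 2.09 (SE 0.53) on the log2 scale in male labelled knockouts, female controls and female labelled knockouts, while its difference in male controls was 0.40 (SE 0.20, adjusted p 0.164). Ccnb1 rose by 0.94 (SE 0.22), 1.79 (SE 0.51) and 1.97 (SE 0.41) in male controls, male labelled knockouts and female controls, and its difference of 1.70 (SE 0.75, adjusted p 0.158) in female labelled knockouts was not called. Ccna2, the cyclin of S phase, rose by 1.05 (SE 0.22) in male labelled knockouts and 1.65 (SE 0.46) in female controls, and was not called in male controls at 0.49 (SE 0.21) or female labelled knockouts at 1.48 (SE 0.51). Its counts are uncertain because Exosc9 overlaps it on the other strand.

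Subunits of the replicative helicase were called in every HFCF comparison, though only Mcm5 and Mcm6 in male controls, while Pcna was not called. MCM2 to MCM7 form the ring that unwinds DNA ahead of the fork, and PCNA is the sliding clamp behind it. Of these 7 genes, 2, 5, 4 and 5 were called against HF in male controls, male labelled knockouts, female controls and female labelled knockouts, and 5 in each genotype against LF. Mcm5 was called in all 6. It measured 2.48 to 5.47 CPM (median 3.80) in male HF controls and 3.86 to 6.79 CPM (median 6.02) in male HFCF controls, and 1.72 to 5.30 CPM (median 2.6) and 5.09 to 7.80 CPM (median 6.14) in the labelled knockouts, so the diets overlapped in both genotypes. The differences were 0.62 (SE 0.20, adjusted p 0.0371) and 1.05 (SE 0.21, adjusted p 0.000936).

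Female controls held 1.53, 1.31, 1.68 and 1.37 CPM of Mcm5 on LF, 3.06, 2.17, 1.87 and 1.41 CPM on HF and 8.29, 6.32, 4.84 and 9.06 CPM on HFCF. Labelled-knockout females held 2.88, 2.07, 1.47 and 2.58 CPM on LF, 2.21, 1.78, 3.23 and 1.41 CPM on HF and 5.81, 7.55, 6.13 and 6.49 CPM on HFCF. Every HFCF female lay above every LF and HF female. The HFCF difference against HF was 1.75 (SE 0.28, adjusted p 0.00545) in controls and 1.58 (SE 0.26, adjusted p 0.00529) in labelled knockouts.

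Mcm2 was called in every HFCF comparison apart from male controls. It was at 7.62 to 10.2 CPM (median 8.81) in male HF controls and 7.64 to 10.0 CPM (median 9.10) in male HFCF controls, a difference of 0.04 (SE 0.10, adjusted p 0.785). Male labelled knockouts held 3.31 to 8.40 CPM (median 5.98) on HF and 6.27 to 9.94 CPM (median 9.14) on HFCF, a difference of 0.59 (SE 0.20, adjusted p 0.0240). The HF labelled knockouts had the lowest median of the 4 male groups. Female controls held 3.30, 3.53, 4.31 and 3.34 CPM on LF, 9.92, 4.33, 5.67 and 4.59 CPM on HF and 13, 11.8, 7.67 and 11 CPM on HFCF, and labelled knockouts 3.60, 3.21, 4.04 and 3.81, 4.36, 5.07, 5.39 and 3.02 and 5.44, 9.84, 7.77 and 11.1 CPM in the same order of diets. Both HFCF differences against HF were called, at 0.83 (SE 0.28, adjusted p 0.0477) and 0.94 (SE 0.26, adjusted p 0.0360).

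Mcm3, Mcm4 and Mcm6 gave called differences of 0.38 to 1.47 against HF where they passed. Mcm7 stayed at 13.3 to 21.3 CPM in all 48 libraries, and its largest HFCF difference was 0.35 (SE 0.12, adjusted p 0.0486) in female controls against HF. It shares its locus with Cops6 and Ap4m1 on the opposite strand, of which Cops6 held a median of 1587 reads per library against 296 for Mcm7. Pcna stayed at 24.0 to 36.5 CPM in all 48 libraries, with HFCF differences against HF of 0.16 (SE 0.06), -0.01 (SE 0.09), 0.24 (SE 0.09) and 0.27 (SE 0.10), none of them called.

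Neither gene of deoxynucleotide supply was called in a diet comparison. Rrm2 encodes the small subunit of ribonucleotide reductase. It measured 7.10 to 11.5 CPM (median 9.53) in male HF controls and 6.04 to 7.83 CPM (median 7.43) in male HFCF controls, a difference of -0.36 (SE 0.13, adjusted p 0.0596). Male labelled knockouts held 6.04 to 9.08 CPM (median 7.58) on HF and 5.58 to 10.4 CPM (median 7.94) on HFCF. Female libraries ran from 4.21 to 10.0 CPM over the 6 groups, with overlap between every pair of them. Tyms, thymidylate synthase, lay between 5.03 and 8.65 CPM in all 48 libraries, and its HFCF differences against HF were -0.14 (SE 0.11), -0.23 (SE 0.13), -0.28 (SE 0.14) and -0.04 (SE 0.15). With these standard errors a change of 1 log2 unit lay outside 2 SE of each of the 4 Tyms values.

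Mki67 encodes the antigen Ki-67, which coats mitotic chromosomes, and Top2a the topoisomerase that untangles them. In males Mki67 measured 5.02 to 11.2 CPM (median 7.31) in HF controls, 2.08 to 10.4 CPM (median 5.21) in HF labelled knockouts, 9.42 to 15 CPM (median 13.7) in HFCF controls and 10.6 to 20.1 CPM (median 16.6) in HFCF labelled knockouts. The HFCF difference was 0.74 (SE 0.19, adjusted p 0.0119) in controls, where the diets overlapped, and 1.57 (SE 0.29, adjusted p 0.00117) in labelled knockouts, where they did not. Female controls held 6.54, 4.51, 2.22 and 2.08 CPM on LF, 6.29, 1.73, 2.99 and 2.51 CPM on HF and 19.1, 13.6, 11.1 and 18.7 CPM on HFCF. Every HFCF control lay above every LF and HF control, and the difference against HF was 2.21 (SE 0.37, adjusted p 0.00628).

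Female labelled knockouts held 4.74, 3.54, 1.77 and 5.72 CPM of Mki67 on LF, 2.42, 5.72, 10.6 and 3.30 CPM on HF and 5.15, 17.3, 18.0 and 20.9 CPM on HFCF. Replicate 1 on HFCF lay among the HF livers and replicate 3 on HF was the highest of its group. The difference, 1.48 (SE 0.52, adjusted p 0.0896), was not called.

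Top2a was called in the same comparisons as Mki67. Male HF controls held 4.04 to 7.55 CPM (median 5.08) and male HFCF controls 6.00 to 10.9 CPM (median 9.38), and labelled knockouts held 1.56 to 6.31 CPM (median 3.34) and 7.44 to 11.5 CPM (median 9.16). Female controls held 2.71, 2.22, 0.659 and 0.877 CPM on LF, 4.90, 1.18, 1.93 and 0.613 CPM on HF and 12.7, 9.36, 6.44 and 11.2 CPM on HFCF. The HFCF difference against HF was 0.76 (SE 0.17, adjusted p 0.00646) in male controls, 1.39 (SE 0.23, adjusted p 0.000235) in male labelled knockouts and 2.20 (SE 0.53, adjusted p 0.0174) in female controls, and it was not called in female labelled knockouts at 1.66 (SE 0.59, adjusted p 0.0901). The values of those livers were 1.92, 0.401, 1.04 and 3.01 CPM on LF, 1.40, 2.63, 5.54 and 0.633 CPM on HF and 3.01, 9.54, 9.15 and 10.8 CPM on HFCF.

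**Figure D3:**
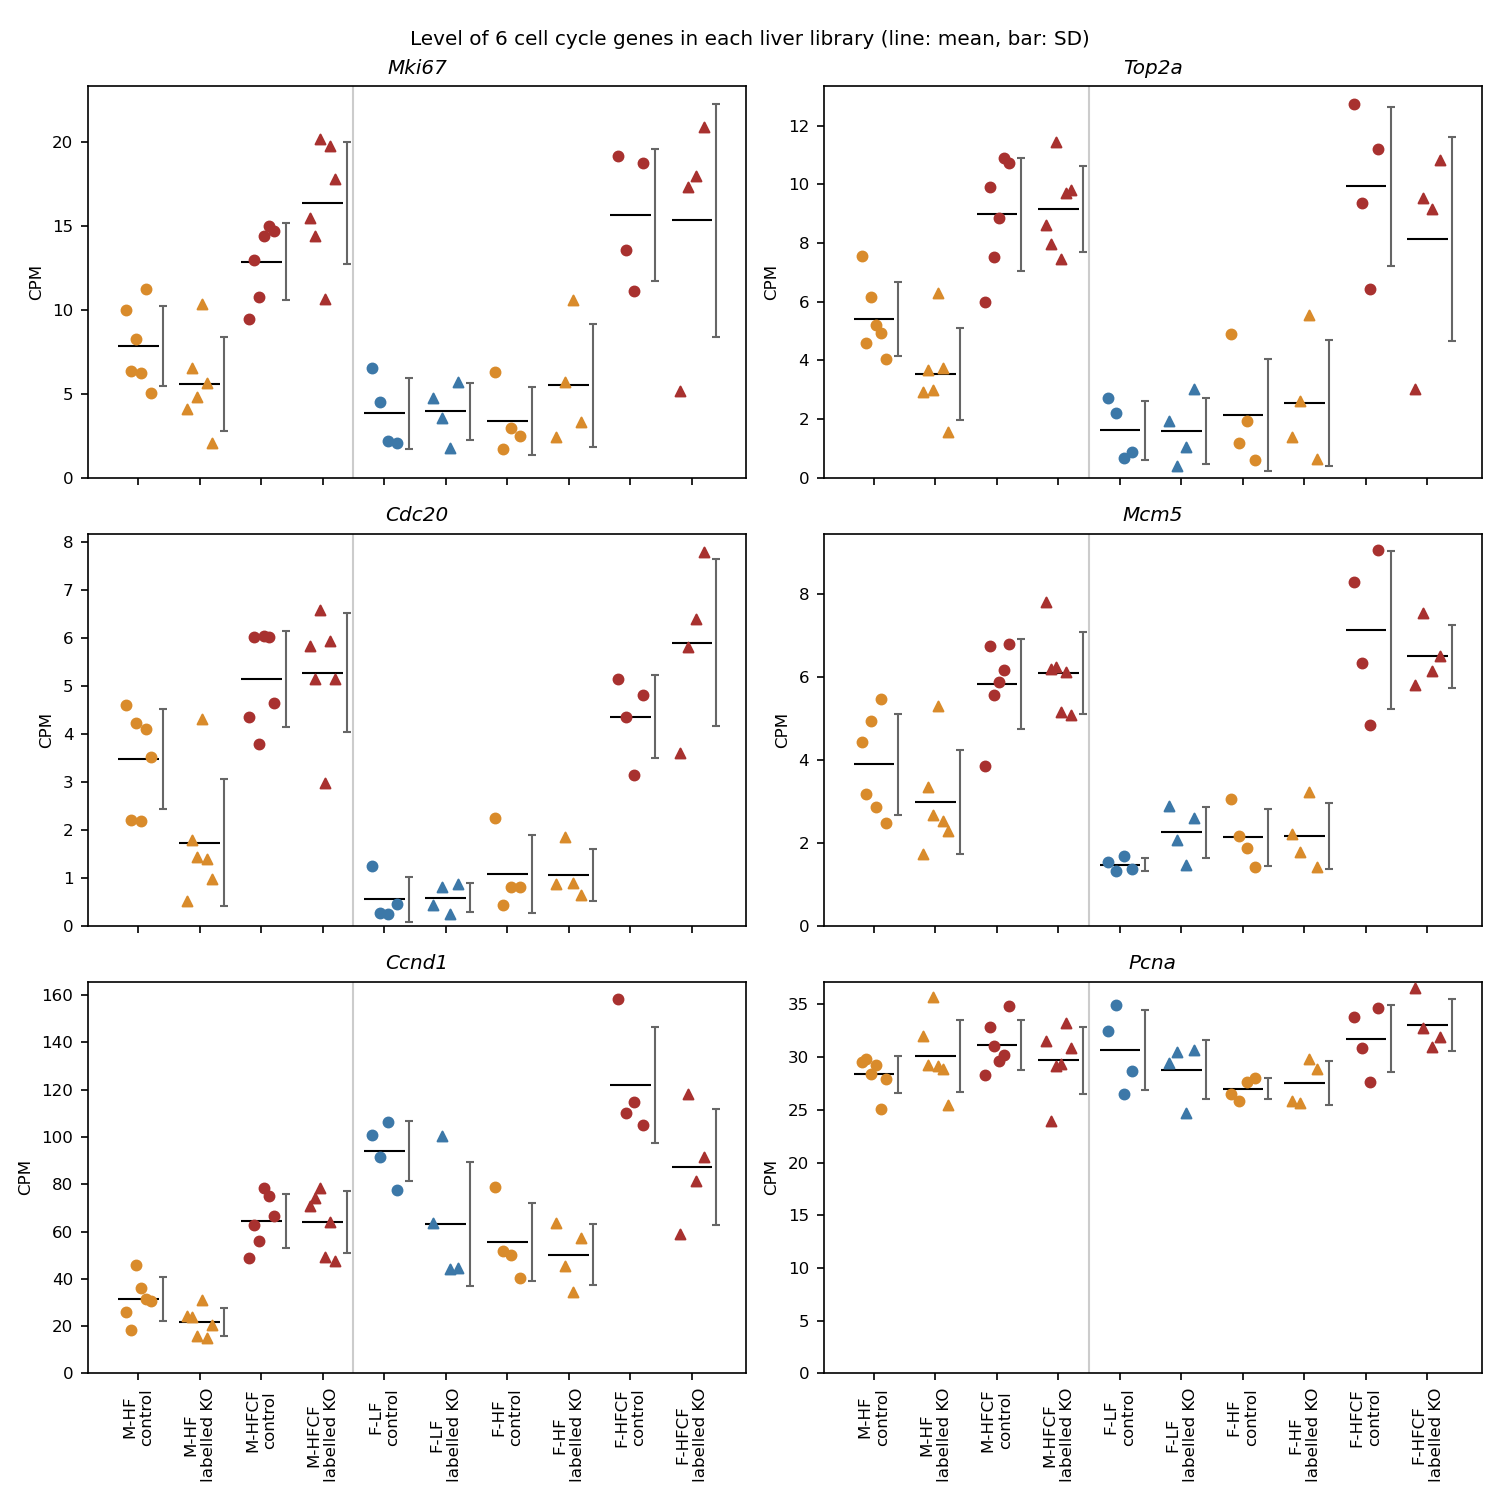
Level (CPM) of 6 members in each of the 48 libraries by group, with circles for controls, triangles for labelled knockouts, a line at the group mean and a bar for the SD. Mki67, Top2a, Cdc20 and Mcm5 are highest on HFCF in both sexes, Ccnd1 is also high in LF controls, and Pcna stays between 24.0 and 36.5 CPM.

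Aurka was the only one of 6 mitotic kinase and checkpoint genes that was not called with the HFCF diet. AURKB, with the survivin gene product of Birc5, corrects chromosome attachments, PLK1 drives mitotic entry, and BUB1 and BUBR1 (Bub1b) hold the spindle checkpoint. Against HF, 3, 5, 3 and 2 of these 6 genes were called in male controls, male labelled knockouts, female controls and female labelled knockouts. Aurkb measured 0.808 to 1.70 CPM (median 1.36) in male HF controls and 1.35 to 3.34 CPM (median 2.35) in male HFCF controls, and 0.0649 to 2.02 CPM (median 0.943) and 1.54 to 2.63 CPM (median 2.05) in labelled knockouts. The diets overlapped in each genotype, and the differences were 0.82 (SE 0.26, adjusted p 0.0337) and 1.07 (SE 0.38, adjusted p 0.0303).

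Female controls held 0.707, 0.589, 0.359 and 0.384 CPM of Aurkb on LF, 0.807, 0.433, 1.31 and 0.184 CPM on HF and 3.01, 1.87, 1.75 and 3.25 CPM on HFCF, and labelled knockouts 0.300, 0.334, 0.306 and 0.492, 0.108, 0.526, 0.833 and 0.352 and 1.32, 2.09, 3.12 and 3.25 CPM in the same order. In both genotypes the HFCF livers lay above all LF and HF livers. The differences against HF were 1.85 (SE 0.48, adjusted p 0.0191) and 2.41 (SE 0.51, adjusted p 0.0137).

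Plk1 was at 0.865 to 1.60 CPM (median 1.45) in male HF controls, 1.41 to 3.77 CPM (median 2.88) in male HFCF controls, 0.454 to 2.71 CPM (median 0.619) in male HF labelled knockouts and 1.12 to 2.75 CPM (median 2.44) in male HFCF labelled knockouts. Female controls held 0.648, 0.654, 0.479 and 0.767 CPM on LF, 1.5, 0.124, 0.249 and 0.490 CPM on HF and 2.71, 2.33, 0.927 and 2.24 CPM on HFCF. The single high HF control, replicate 1, exceeded the lowest HFCF control, and the difference of 1.77 (SE 0.62, adjusted p 0.0563) was not called. It was called in female labelled knockouts, at 1.71 (SE 0.46, adjusted p 0.0347), with 0.360, 0.334, 0.245 and 1.48 CPM on LF, 0.323, 0.855, 1.13 and 0.352 CPM on HF and 1.47, 2.43, 1.53 and 3.35 CPM on HFCF. Aurka, the centrosome kinase, lay between 2.63 and 6.03 CPM in all libraries and was not called in any comparison.

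Both genes of the anaphase ubiquitin ligase group were called at least 2 times. CDC20 activates this ubiquitin ligase and UBE2C is its ubiquitin donor. Cdc20 measured 2.18 to 4.59 CPM (median 3.81) in male HF controls and 3.79 to 6.04 CPM (median 5.32) in male HFCF controls, and 0.510 to 4.29 CPM (median 1.40) and 2.98 to 6.57 CPM (median 5.49) in labelled knockouts. In female controls it held 1.24, 0.262, 0.240 and 0.438 CPM on LF, 2.25, 0.433, 0.809 and 0.796 CPM on HF and 5.13, 4.35, 3.14 and 4.80 CPM on HFCF, and in female labelled knockouts 0.420, 0.802, 0.245 and 0.861, 0.861, 1.84, 0.882 and 0.633 and 3.60, 5.81, 6.38 and 7.78 CPM. HFCF females stood above all LF and HF females of the same genotype.

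The HFCF difference of Cdc20 against HF ran from 0.60 (SE 0.20, adjusted p 0.0458) in male controls through 1.62 (SE 0.36, adjusted p 0.00291) in male labelled knockouts and 2.01 (SE 0.42, adjusted p 0.0101) in female controls to 2.50 (SE 0.36, adjusted p 0.00333) in female labelled knockouts. Elovl1 overlaps Cdc20 on the opposite strand with a median of 785 reads per library against 52.5 for Cdc20, so its counts are uncertain. Ube2c was called in 2 of the 6, with 0.93 (SE 0.28, adjusted p 0.0124) in male labelled knockouts and 2.01 (SE 0.47, adjusted p 0.00828) against LF in female controls. It held 1.10 to 2.37 CPM (median 1.70), 0.714 to 1.89 CPM (median 1.37), 1.04 to 3.38 CPM (median 2.19) and 1.44 to 3.48 CPM (median 2.34) in male HF controls, HF labelled knockouts, HFCF controls and HFCF labelled knockouts. Female controls held 1.30, 0.327, 0.300 and 0.384 CPM on LF, 1.96, 0.495, 0.560 and 0.306 CPM on HF and 3.31, 1.82, 1.65 and 2.72 CPM on HFCF. Female labelled knockouts held 1.56, 0.267, 0.612 and 1.23, 0.699, 0.855, 1.62 and 0.773 and 0.882, 2.24, 3.02 and 4.02 CPM, with overlap between the diets.

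Of the 7 spindle and kinetochore genes, 6, 7, 6 and 2 were called against HF, and 7 and 5 against LF. Cenpf, which encodes a kinetochore protein, was the only member called in 7 of the 13 comparisons of 2 groups. Cenpf measured 1.21 to 2.76 CPM (median 1.80) in male HF controls, 0.454 to 1.33 CPM (median 0.661) in male HF labelled knockouts, 2.02 to 4.69 CPM (median 2.86) in male HFCF controls and 1.91 to 4.59 CPM (median 3.39) in male HFCF labelled knockouts. Female controls held 1.18, 0.392, 0.240 and 0 CPM on LF, 1.44, 0.124, 0.872 and 0 CPM on HF and 3.75, 3.69, 3.04 and 3.89 CPM on HFCF. Replicate 4 of the LF controls and replicate 4 of the HF controls held no Cenpf read.

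Female labelled knockouts held 0.420, 0.0668, 0.122 and 0.307 CPM of Cenpf on LF, 0.753, 1.32, 1.03 and 0.0703 CPM on HF and 1.25, 3.18, 3.17 and 4.64 CPM on HFCF. The HFCF difference against HF was 0.81 (SE 0.23, adjusted p 0.0195) in male controls, 1.94 (SE 0.30, adjusted p 8.40e-05) in male labelled knockouts, 2.54 (SE 0.70, adjusted p 0.0261) in female controls and 1.94 (SE 0.57, adjusted p 0.0473) in female labelled knockouts. Kif20a, the kinesin of cytokinesis, held 1.67 to 2.35 CPM (median 2.08) in male HF controls and 2.52 to 3.39 CPM (median 3.08) in male HFCF controls, without overlap. Its differences were 0.62 (SE 0.15), 1.14 (SE 0.27), 1.06 (SE 0.33) and 1.42 (SE 0.39). Male labelled knockouts held 0.779 to 2.59 CPM (median 1.55) on HF and 2.07 to 5.08 CPM (median 3.24) on HFCF.

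Kif20a in female controls held 1.30, 0.392, 0.659 and 0.438 CPM on LF, 1.15, 1.55, 1.68 and 0.674 CPM on HF and 3.36, 2.58, 1.65 and 2.93 CPM on HFCF, and in labelled knockouts 0.540, 1.2, 0.918 and 1.05, 1.18, 1.84, 1.76 and 0.562 and 1.99, 4.02, 3.81 and 4.53 CPM. The lowest HFCF control lay just under the highest HF control, while the labelled knockouts did not overlap; Cdc23 on the opposite strand makes the counts uncertain. Among the other spindle genes, Tpx2, Cenpe, Kif11, Kif23 and Nusap1 were called in 3 to 5 of the 6 comparisons.

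The members' values did not overlap between HFCF and HF, and were higher on HFCF, for 3 members in male controls, 8 in male labelled knockouts, 18 in female controls and 14 in female labelled knockouts. Among all tested genes 1.53%, 9.79%, 15.4% and 10.2% were separated in that direction. Counted in either direction, 19 members were separated in female controls, of which 18 were higher on HFCF. Against LF it was 24 members in controls and 16 in labelled knockouts, where 18.1% and 9.81% of tested genes were separated upwards.

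Levels of different genes can be compared per kilobase of gene length. In LF control females Ccnd1 stood highest at a mean of 20.0 CPM per kb, Pcna followed at 12.8, Mcm7 at 3.98 and Rrm2 at 2.68, and Cdc20 held 0.291, Top2a 0.179, Cenpf 0.0293 and Bub1 0.0140. In HFCF control females Ccnd1 stood at 25.9, Pcna at 13.2, Cdc20 at 2.33, Top2a at 1.10 and Cenpf at 0.233 CPM per kb. Across the 34 members, those with a lower level in LF control females had larger HFCF differences in males, with a Spearman rho of -0.56 in controls and -0.63 in labelled knockouts (Pearson r -0.44 and -0.60 with the log2 level). These are correlations across genes, which share libraries and are not replicates, and the LF livers enter neither male comparison.

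No member was called between the HF and LF diets in females. Of 28 members tested, 0 were called in controls and 0 in labelled knockouts, where 0.872% and 0.106% of all tested genes were called. At an unadjusted p under 0.05 there were 3 and 1 members, against 16.1% and 13.2% of all tested genes, and the DESeq2 Wald test called 1 and 0. The median difference of the members tested was 0.11 in controls and 0.23 in labelled knockouts. Values did not overlap for 3 members in controls, 2 of them higher on HF, and for 1 in labelled knockouts, where 10.0% and 8.45% of all tested genes were separated in either direction. Mcm2 showed the separation in controls, with LF livers at 3.30 to 4.31 CPM and HF livers at 4.33 to 9.92 CPM, but its difference of 0.78 (SE 0.28, adjusted p 0.212) was not called.

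In HF males 3 members were lower in labelled knockouts than in controls. Of 33 members tested there, 0 were higher and 3 lower, a share of 9.09%, below the 18.3% of all tested genes that were called and near the 9.76% called lower. Bub1b measured 1.03 to 3.29 CPM (median 2.28) in controls and 0.649 to 1.64 CPM (median 1.10) in labelled knockouts, a difference of -1.05 (SE 0.28, adjusted p 0.0152). Cenpf differed by -1.17 (SE 0.29, adjusted p 0.00980) and Mcm2 by -0.61 (SE 0.18, adjusted p 0.0254), with the values given above. The HF male libraries of both labels also enter the HFCF comparisons above. The 3 genes overlapped between groups, as did the other members in every comparison of the label (0 of 34 separated, against 7.95% of all tested genes in HF males and 2.21%, 1.66%, 5.28% and 5.63% in HFCF males and LF, HF and HFCF females). The members' median difference was -0.42, 29 of 33 were negative, and 13 had an unadjusted p under 0.05, a share of 39.4% against 31.5% of all tested genes.

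Of the 3 calls, 2 held under every omission of a single library, but the count changed most with 1 library. HF male labelled knockout 4 was the highest of its group for 27 of the 34 members, with 2.84 CPM of Ccnb2 against 0.701 to 1.43 in the rest of its group, 4.29 CPM of Cdc20 against 0.510 to 1.78, and 2.71 CPM of Plk1 against 0.454 to 0.975. Without it 12 of 33 members were called, all lower, where 10.5% of all tested genes were called lower, led by Ccnb1 at -2.19 (SE 0.34, adjusted p 0.000262), Cdc20 at -1.51 (SE 0.29, adjusted p 0.00128) and Mcm6 at -0.73 (SE 0.15, adjusted p 0.00247). Leaving out a library that is high for most members lowers the labelled-knockout values, so the larger count follows in part from that choice. Without HF male control 2 the count was 5. The macrophage and stellate marker sums of HF male labelled knockout 4 lay within those of the rest of its group. They were 652 CPM for 15 macrophage genes against 568 to 799.5 in the rest, and 516 CPM for 11 stellate genes against 396 to 529. Other sums lay outside the range of the rest. Its 8 B and plasma cell markers summed to 57.6 CPM against 19.7 to 37.2. Its T and NK cell markers summed to 9.72 CPM against 4.70 to 8.54, and its endothelial markers to 320 CPM against 354 to 518. Across the HF males, 7 of 11 stellate markers and 4 of 15 macrophage markers were lower and 8 of 11 hepatocyte markers higher in labelled knockouts. Of 6 erythroid markers tested there, Alas2 at 0.55 (SE 0.11, adjusted p 0.00220) and Klf1 at 0.75 (SE 0.15, adjusted p 0.00156) were higher, and the sum of 9 erythroid markers was 816, 623 and 828 CPM in labelled knockouts 3, 4 and 5 against 171 to 194 CPM in the other labelled knockouts and 170 to 252 CPM in controls. The part of these cells in the members' difference was not tested.

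On HFCF in males, and on any diet in females, no member was called for the label. In HFCF males 0 of 34 were called (1 at an unadjusted p under 0.05, against 14.1% of all tested genes, and 0 by the DESeq2 Wald test), where 2.2% of all tested genes were. In females 0 of 26, 0 of 31 and 0 of 34 were called on LF, HF and HFCF, with 0, 0 and 1 at an unadjusted p under 0.05 and 0 by the Wald test, where 0.0%, 0.0% and 0.0534% of all tested genes were called and 2.35%, 7.84% and 8.99% had an unadjusted p under 0.05. 

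Whether the diet effect differed with the label or between the sexes was tested directly. In males, where HFCF minus HF was larger in labelled knockouts than in controls for 30 of 34 members by a median of 0.52, 0 of 34 passed (12 at an unadjusted p under 0.05, 1 by the DESeq2 Wald test), with 1.4% of all tested genes called and 16.8% at an unadjusted p under 0.05. Without HF male labelled knockout 4, 4 members passed, all with a larger diet effect in labelled knockouts, where 1.87% of all tested genes passed: Ccnb1 at 1.90 (SE 0.40, adjusted p 0.0139), Foxm1 at 1.40 (SE 0.30, adjusted p 0.0156), Cdc20 at 1.54 (SE 0.34, adjusted p 0.0201) and Mcm6 at 0.88 (SE 0.20, adjusted p 0.0210). Omitting that high library itself widens the diet effect of the labelled knockouts. Without HF male control 4 the count was 1 member. In females 0 of 34 passed (0 at an unadjusted p under 0.05, against 4.23% of all tested genes, and 0 by the Wald test), with 0.0% of all tested genes called, and the median was -0.09.

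**Figure D4:**
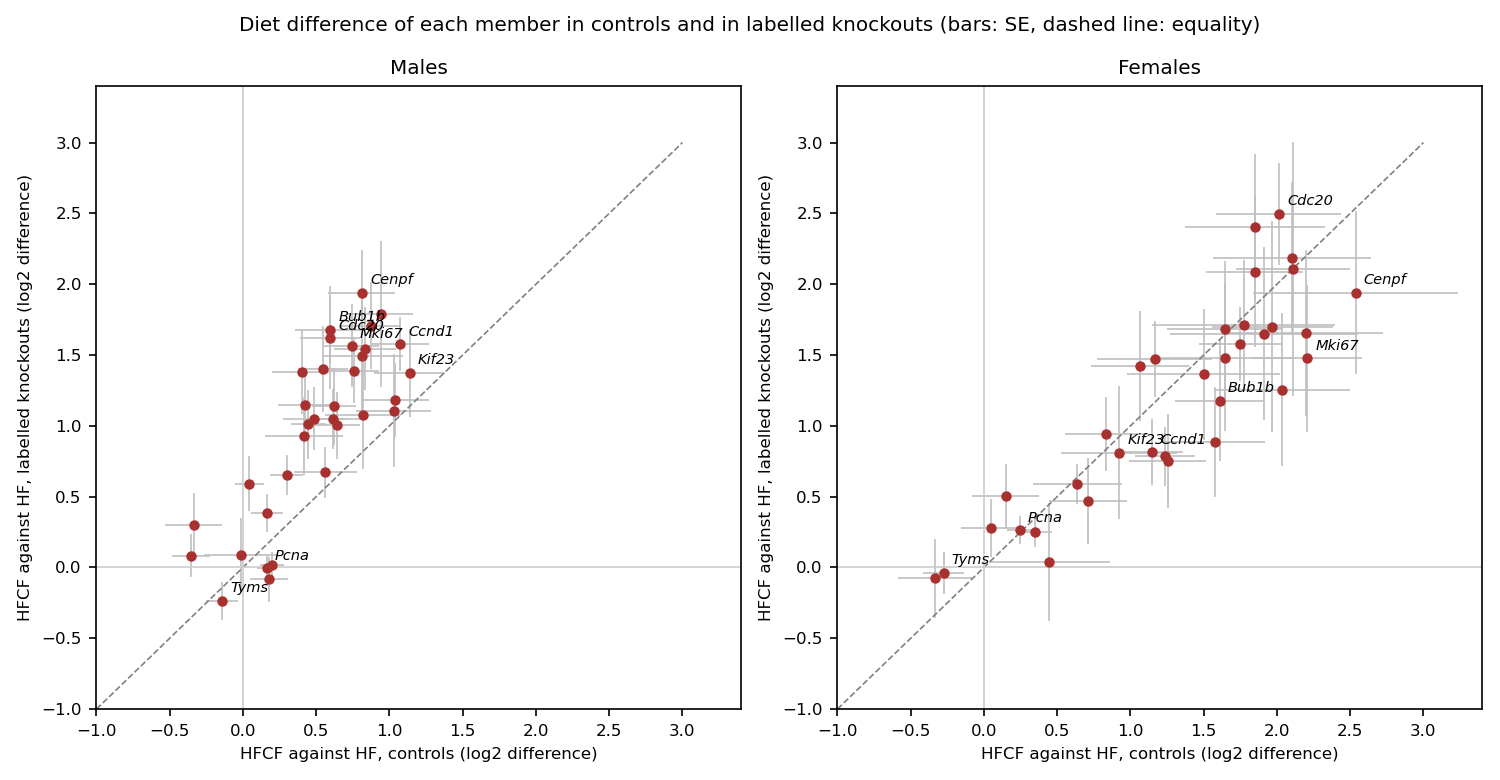
HFCF against HF log2 difference of each member in controls (x axis) and in labelled knockouts (y axis), males on the left and females on the right, with SE bars and the line of equality. In males 30 of 34 points lie above the line, and in females the points lie on both sides of it.

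Between the sexes, the diet effect in controls was smaller in males for 30 of 34 members, by a median of 0.88 log2 units. None of the 34 passed (0 called, 16 at an unadjusted p under 0.05, 4 by the Wald test), with 0.00646% of all tested genes called and 16.3% at an unadjusted p under 0.05. Here too the count changed most with 1 library. Female HF control 1 was the highest of its group for 25 of 34 members, and without it 15 members passed, all with the smaller effect in males, among them Mcm3 at -1.24 (SE 0.21, adjusted p 0.00171), Top2a at -2.24 (SE 0.39, adjusted p 0.00230) and Mki67 at -1.95 (SE 0.35, adjusted p 0.00297). Without it 1644 of 15762 genes were called in all, against 1 with it. Omitting a library that is high for most members itself enlarges the female diet effect, so these calls follow in part from that choice. Without HFCF female control 3 the count was 1 member. Female HF control 1 also held 306 CPM of 8 cholangiocyte markers, against 70.6 to 99.6 in the rest of its group, and 1011 CPM of stellate markers against 254 to 404.

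In labelled knockouts 0 of 34 members differed between the sexes in the diet effect (2 at an unadjusted p under 0.05, against 11.8% of all tested genes, and 0 by the Wald test), with 0.013% of all tested genes called. The label effect differed between the sexes for 0 of 34 members on HF (4 at an unadjusted p under 0.05, against 10.3% of all) and 0 of 34 on HFCF (0 against 9.66%), 0 by the Wald test on both, with 0.0% of all tested genes. As values, male HF controls held 5.42 ± 1.26 CPM of Top2a (SD, n = 6) against 2.16 ± 1.91 (SD, n = 4) in female HF controls, and 3.47 ± 1.05 CPM of Cdc20 against 1.07 ± 0.804. The HFCF levels were 8.99 ± 1.93 and 9.93 ± 2.71 CPM of Top2a. No test between the sexes at 1 diet was made.

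**Figure D5:**
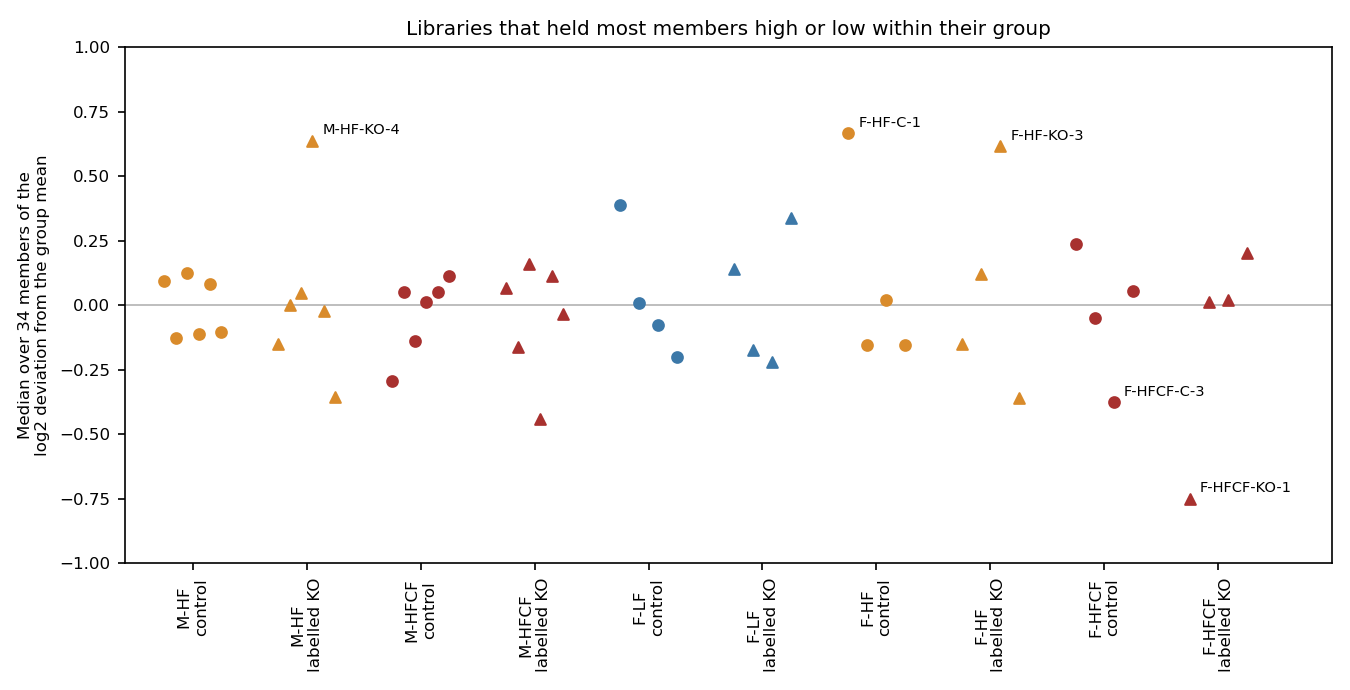
Median over the 34 members of each library's log2 deviation from its group mean (log2 of CPM plus 0.25), with circles for controls and triangles for labelled knockouts. The named libraries were the highest or lowest of their group for 25 or more members: HF male labelled knockout 4, HF female control 1 and HF female labelled knockout 3 high, HFCF female control 3 and HFCF female labelled knockout 1 low.

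With all 10 groups in one fit, which share 1 estimate of the spread, 3 members were called in male controls and 26 in female labelled knockouts against HF, in place of 18 and 14. The number of members called against HF also depended on single livers in females. In female controls it was 14 without HF control 3 or without HFCF control 1, and 28 without HF control 1. In female labelled knockouts it was 4 without HF replicate 4, HFCF replicate 3 or HFCF replicate 4, 5 without HF replicate 1 or HFCF replicate 2, 7 without HF replicate 2, and 22 without HF replicate 3. HF labelled knockout 3 was the highest of its group for 25 members and held 186.5 CPM of 11 neutrophil markers against 6.75 to 10.4 in the rest of its group, and 1309 CPM of macrophage markers against 512 to 660. HFCF labelled knockout 1 was the lowest for 30 members. Its hepatocyte markers summed to 122397 CPM against 65510 to 84631 in the rest. Against LF the count in labelled knockouts was 13 without HFCF replicate 2. In male controls the count ran from 12 without HFCF control 6 to 24, 1 of them lower, without HFCF control 1, the library with the lowest cholangiocyte sum of its group (184 CPM against 503 to 605).

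Of the calls made with all libraries, 12 of 18, 23 of 27, 13 of 22 and 4 of 14 held under every omission of a single library in the HFCF against HF comparisons, and 22 of 25 and 12 of 21 against LF.

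Related genes outside the 34 were counted from lists by function. Their counts of calls against HF stand beside 12.8%, 21.5%, 16.5% and 8.5% of all tested genes called higher in male controls, male labelled knockouts, female controls and female labelled knockouts. Of 63 other mitotic genes, 14 were called higher and 1 lower in male controls, 38 and 0 in male labelled knockouts, 31 and 0 in female controls and 18 and 1 in female labelled knockouts against HF, so 24.1%, 67.9%, 53.4% and 32.1% of those tested were higher. Hmmr, a spindle protein, rose by 0.84 (SE 0.26), 1.86 (SE 0.30), 2.09 (SE 0.46) and 2.92 (SE 0.51), and Ckap2 by 0.77 (SE 0.26), 1.46 (SE 0.39), 1.97 (SE 0.46) and 2.96 (SE 0.60). In HF males 9 of 51 tested were lower with the label, a share of 17.6% against 9.76% of all tested genes, and without labelled knockout 4 it was 20 of 51. The 9 included the kinesin Kifc1 at -1.29 (SE 0.36, adjusted p 0.0171).

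Of 43 licensing and fork genes, 2 were higher and 2 lower in male controls, 7 and 4 in male labelled knockouts, 6 and 2 in female controls and 3 and 1 in female labelled knockouts. The higher calls were 4.88%, 17.1%, 14.6% and 7.32% of those tested, each below the share of all genes. Uhrf1, which guides maintenance methylation at forks, rose by 0.74 (SE 0.25), 1.05 (SE 0.30) and 2.46 (SE 0.38) in male controls, male labelled knockouts and female controls and gave 1.08 (SE 0.61, adjusted p 0.266) in female labelled knockouts. Lig1, the ligase of Okazaki fragments, gave 0.71 (SE 0.17, adjusted p 0.00361) in male labelled knockouts and 0.19 (SE 0.14, adjusted p 0.352) in male controls. Tk1, a thymidine salvage kinase, went the other way, with -0.68 (SE 0.14, adjusted p 0.00122) in male labelled knockouts and -1.40 (SE 0.27, adjusted p 0.0110) in female labelled knockouts, while in HF males it was higher with the label by 0.91 (SE 0.13, adjusted p 0.000175).

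Of 19 genes of the E2F, RB and DREAM group, 4, 5, 3 and 0 were higher and 0, 3, 0 and 2 lower against HF. The higher calls were 21.1%, 26.3%, 15.8% and 0% of those tested, near or below the share of all genes except in male controls. E2f2, an activator E2F, rose by 0.66 (SE 0.21), 0.48 (SE 0.17) and 2.16 (SE 0.28) in male controls, male labelled knockouts and female controls, and gave 0.81 (SE 0.38, adjusted p 0.183) in female labelled knockouts. Of 7 other D cyclins and CDKs, 1, 2, 1 and 0 were higher and 0, 1, 1 and 0 lower. Ccnd2, another D cyclin, rose by 0.89 (SE 0.26), 1.22 (SE 0.13) and 1.62 (SE 0.29) in the same groups and gave 0.43 (SE 0.51, adjusted p 0.623) in female labelled knockouts, whereas Ccnd3 was lower in male labelled knockouts at -0.21 (SE 0.07, adjusted p 0.0202).

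Among inhibitors of the cycle, Cdkn1a, the CDK inhibitor p21, was called in 5 of the 6 HFCF comparisons, with 1.48 (SE 0.20, adjusted p 5.79e-05) in male labelled knockouts, 1.93 (SE 0.51, adjusted p 0.0266) in female controls and 2.35 (SE 0.51, adjusted p 0.0179) in female labelled knockouts, and gave 0.58 (SE 0.28, adjusted p 0.161) in male controls. It was lower with the label in HF males, at -1.5 (SE 0.29, adjusted p 0.00429). Of 8 CDK inhibitors, of which 6, 6, 6 and 5 were tested, 0, 3, 1 and 1 were called higher against HF and 0 lower, counts too small to set against the share of all genes. Of 19 p53 targets and damage-arrest genes, 3, 7, 10 and 5 were higher and 0 lower (15.8%, 36.8%, 52.6% and 27.8% of those tested), among them Plk2 by 0.54 (SE 0.16), 0.86 (SE 0.13), 1.11 (SE 0.18) and 1.04 (SE 0.17). Of 18 genes of hepatocyte growth signals, 5, 8, 3 and 6 were higher and 2, 3, 3 and 2 lower; the EGF receptor ligand Btc rose by 0.44 (SE 0.14), 1.17 (SE 0.17), 0.87 (SE 0.27) and 0.93 (SE 0.19).

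Markers of macrophages, stellate cells and cholangiocytes were called higher in each HFCF comparison, in larger shares than all tested genes, and erythroid markers were not higher against HF. Of 15 macrophage markers, 11, 12, 11 and 6 were called higher against HF, and 11 and 11 against LF. Their summed level ran from 456 to 799.5 CPM in HF males and from 781 to 1741 in HFCF males, and from 447 to 1309 in HF females and 1199 to 1781 in HFCF females. Of 11 stellate and myofibroblast markers, 9, 10, 4 and 9 were higher, and 9 and 7 against LF. Their sum ran from 396 to 864 CPM in HF males and 699 to 1392 in HFCF males, and from 254 to 1011 in HF females and 793 to 1613 in HFCF females. Of 8 cholangiocyte markers, 8, 7, 7 and 6 were higher, and 8 and 6 against LF, with sums of 87.0 to 245 CPM in HF males, 184 to 710 in HFCF males, 70.6 to 306 in HF females and 268 to 588 in HFCF females. Hepatocyte markers were lower for 5, 9, 6 and 0 of 11 and higher for 1, 0, 0 and 0, and against LF lower for 9 and 1. Of 11 T and NK cell markers, 0, 3, 2 and 0 were higher against HF and 0 and 0 against LF, and of 8 B and plasma cell markers 1, 2, 1 and 0, and 1 and 0. Of 10 endothelial markers, 1, 2, 7 and 5 were higher against HF and 3 and 0 against LF. Of 11 neutrophil markers, 4 at most passed the filter and 0, 2, 1 and 0 were higher against HF, and 1 and 0 against LF. Of 9 erythroid markers, 0 were higher and 0, 2, 1 and 1 lower against HF, and against LF 1 and 1 were higher and 1 and 0 lower. The calls against HF included the erythroid factor Klf1 at -0.97 (SE 0.21) in male labelled knockouts, -1.34 (SE 0.29) in female controls and -1.37 (SE 0.41) in female labelled knockouts. In the macrophage, stellate and cholangiocyte lists only Timp1 and Cldn4 were at 0 in any library, each in 2 of 48, while the neutrophil marker Ly6g was at 0 in 38. The part of these cells in the members' differences was not tested.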

How the data were processed

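RNA-seq of 48 mouse livers was used as 11 tables of pairs of groups, from non strand specific libraries with inserts of 250 to 300 bp. The authors' deposited tables give read counts per gene, and the submitters' processing notes name STAR 2.6.1, HTSeq 0.6.1, DESeq2 2 and the build GRCm38/mm10. The deposited tables also hold a normalised signal (each count divided by 1 factor per library), FPKM values, and the authors' log2 fold changes and p-values, which were not used for any result. Joining the tables gave 29221 genes; 0 of 1341082 repeated counts differed, and 144682 gene-by-library entries absent from a table were set to 0.

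Each pair of groups was fitted with edgeR 4.0.16 (limma 3.58.1, R 4.3.3): filterByExpr, TMM scaling, the quasi-likelihood test and Benjamini-Hochberg adjustment over all tested genes. There were 13 such comparisons and 6 tests of a difference between differences. Calls needed an adjusted p under 0.05. The method was tested on simulated counts. Alternatives were DESeq2 1.42.0 size factors or its Wald test, no filter on low counts or a minimum of 10 counts in each library, a call rule that also asked for a log2 difference of 1 or more in size, all 10 groups in one fit, a replicate block, and leaving out each library (240 refits). Same-numbered libraries of 2 groups correlated at -0.28 to 0.43 in their deviations, with every pair over 0.1 in 0 of 13 comparisons, so numbers were not taken as pairs.

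The members and the gene lists were chosen with earlier results of these data known. Values per library are given for 16 members: Mki67, Ccnd1 and the 2 of each role called most often, ties going to the smallest adjusted p. Up to 3 genes of each related list were eligible to be named in the same order. Other members given with values were named after these were seen. Depth was 15338239 to 22072884 reads on genes per library, and genes with few reads carry counting error beside the spread between mice. Promoter sequences came from RefSeq.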

Additional observations from a re-analysis of the deposited data

Results flagged for a closer look

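In 10 of 160 sets of 1 member in 1 group, the highest library stood apart from the others by Dixon's test at the 95% level, which chance gives in about 1 of 20 sets. In HF male labelled knockouts, replicate 4 held 2.84 CPM of Ccnb2 (others 0.701 to 1.43), 2.71 CPM of Plk1 (others 0.454 to 0.975) and 4.29 CPM of Cdc20 (others 0.510 to 1.78). In LF female controls, replicate 1 held 1.06 CPM of Ccnb2 (others 0.219 to 0.359), 1.30 CPM of Cdk1 (others 0.493 to 0.599) and 1.30 CPM of Ube2c (others 0.300 to 0.384). In HF female controls, replicate 1 held 1.79 CPM of Ccne1 (others 0.551 to 0.685) and 1.96 CPM of Ube2c (others 0.306 to 0.560). Replicate 3 of the HF female labelled knockouts held 1.62 CPM of Ube2c (others 0.699 to 0.855), and replicate 4 of the LF female labelled knockouts held 1.48 CPM of Plk1 (others 0.245 to 0.360). All of these are high values.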

How the results depend on the processing

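Counts of members called are given against the reported value. For HFCF against HF in male controls (18), 4 were called where a log2 difference of 1 or more in size was also asked and 3 with all 10 groups in one fit; without 1 library the count was 12 to 24. In female controls (22) it was 14 of 20 tested with at least 10 counts in every library, and 14 to 28 without 1 library. In female labelled knockouts (14) it was 7 of 21 tested with at least 10 counts, 26 with all 10 groups in one fit, and 4 to 22 without 1 library. For HFCF against LF it was 13 of 21 tested with at least 10 counts in controls (25), and 9 of 16 in labelled knockouts (21), where leaving out 1 library gave 13 to 24. For HF against LF in controls (0), the Wald test and the fit of all 10 groups each called 1, and leaving out 1 library gave 0 to 1; in labelled knockouts (0) the fit of all groups called 1. For the label in HF males (3), the Wald test called 6, and 2 to 12 were called without 1 library. For the difference of the male diet effects (0), the Wald test called 1, and 0 to 4 were called without 1 library. For the sex difference in controls (0), the Wald test called 4, and leaving out 1 library gave 0 to 15. Leaving out HFCF male control 1 and HF female control 1 together, a setting chosen after seeing the data, gave 15. The causes were not tested, beyond the smaller number of genes under the count minimum. Over single called members and settings, 1769 values kept the call, 320 lost it and none changed sign.

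The replicate block, whose numbers are not said to mark a shared animal or batch, called 0 in female controls for HFCF against HF (1 gene of all tested). It called 7 in female labelled knockouts and 1 for HF against LF in controls.

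Members with few reads are limited by depth, and p-values weigh the difference between groups against the spread between mice within groups.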
